A study of Apis mellifera ligustica with 12 samples.

Results

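The neighbouring honeybee hairpins of miR-12, miR-3477 and miR-283 were followed through 4 of the 1350 entries in the deposited miRNA list, ame-miR-12-5p, ame-miR-3477-5p, ame-miR-283-5p and miR-3477-x. The entries were chosen by name, with earlier results of these data known. Of the 4 entries, ame-miR-3477-5p and miR-3477-x belong to the miRNAs that the study selected for a difference between the same 12 libraries. Their group differences are therefore given below as a description without a test. For ame-miR-12-5p and ame-miR-283-5p the differences were tested. Their hairpins neighbour that of a selected miRNA, so these tests are not fully free of that selection. All 4 entries were among the 787 entries with at least 10 counts over the libraries.

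The libraries were made from brains of adult Apis mellifera ligustica foragers, 20 brains of 1 colony being pooled for each, with 3 libraries in each of 4 groups. CK was untreated brain, and D10, D20 and D30 (X1D10, X1D20 and X1D30 in the sample titles) came from bees of treated hives collected on days 10, 20 and 30 of the treatment. Fluvalinate, a pyrethroid used against mites, was hung in the hive as strips holding 40 mg each, renewed at intervals of 7 days. The study treats CK as the period before treatment, which it sampled 1 day ahead of the first strip. Treatment and sampling date therefore cannot be told apart where a treated group differs from CK. The study also kept control colonies, and the sources used here do not say whether any CK library came from them.

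A miRNA is cut from a hairpin in a longer primary transcript by Drosha and Dicer and is loaded into an Argonaute protein, where bases 2 to 8, the seed, lead the pairing with target messages. Hairpins that lie close together often come from 1 primary transcript, while the mature level of each also depends on how its hairpin is cut and how long the product lasts. In Drosophila, miR-12 and miR-283 also lie together, in a cluster with miR-304.

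In the RefSeq gene table of Amel_HAv3.1, Mir12 lay on linkage group 2 at 4840914 to 4840996, Mir3477 at 4841409 to 4841507 and Mir283 at 4842179 to 4842278. The hairpins were separated by 412 bases and 671 bases and spanned 1365 bases. No other annotated miRNA lay within 10 kb. The 3 hairpins fell inside the span of the protein-coding gene LOC411348, at 4839190 to 4897530. The table gives gene spans only, so exon, intron and strand were not analysed here.

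The mature sequences as deposited are shown first, with the seed in capitals, because the entries differ in which seed they carry and because reads of near-identical entries could be split between them. The 3 main products of the hairpins were as follows.
ame-miR-12-5p: tGAGTATTacatcaggtactggt
ame-miR-3477-5p: tAATCTCAtgcggtaactgtgag
ame-miR-283-5p: aAATATCAgctggtaattct

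The seeds of ame-miR-3477-5p and ame-miR-283-5p differed at 1 base, C5A (positions are counted from 1 at the 5′ end, and the first base is that of ame-miR-3477-5p). The variant entries, to which tags were assigned through miRNAs of other species, are shown with the same marks, since their levels are compared with those of the main products below.
miR-3477-x: tGATCTCAtgcggtaactgtgaga
miR-283-x: aAATATCAgctggtaattctga
miR-12-z: tGAGTATTacatcaggtactggaa
miR-12-x: tGAGTATTacatcaggtactggat

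miR-3477-x carried A2G relative to ame-miR-3477-5p and 1 additional base at the 3′ end, so the change fell on the first base of the seed. No other entry of the list had the seed of ame-miR-3477-5p or that of miR-3477-x. miR-283-x was ame-miR-283-5p with 2 further 3′ bases and an unchanged seed. miR-12-x and miR-12-z both carried T23A relative to ame-miR-12-5p and 1 additional base, also with an unchanged seed. The seed of ame-miR-283-5p was shared by 4 entries, miR-283-x, ame-miR-6041-3p, miR-6041-y and miR-216-x, and that of ame-miR-12-5p by miR-12-x and miR-12-z.

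Across the libraries, 8454313 to 15979901 counts fell on listed miRNAs. The number of entries counted was 510 to 626 in 11 libraries and 837 in D30-3, which stands apart from the others in this number. D10-2 departed from its replicates over the list as a whole. Chi-square per degree of freedom, over entries with at least 50 counts in a pair, was 2155 for D10-1 with D10-2. It was 1900 for D10-2 with D10-3 and 248 for D10-1 with D10-3. Replicate pairs of the other groups ran from 72.7 to 1608. The neuronal markers (miR-124, miR-137 and miR-1000) were counted in every library, 3 of 3, with a summed level of 17383 to 23929 TPM in CK, 21648 to 35936 at D10, 21712 to 27390 at D20 and 20578 to 24624 at D30. The muscle markers (miR-1 and miR-133), 2 of 2 of them counted in every library, summed to 3869 to 4637 TPM in CK, 3049 to 3978 at D10, 2981 to 3591 at D20 and 3127 to 5036 at D30. The sums do not show each marker. From CK to D10 the mean of ame-miR-124-3p went from 15339 to 22389 TPM, that of ame-miR-137-3p from 4420 to 4210 and that of ame-miR-1000-5p from 15.0 to 22.7. From CK to D30 ame-miR-1-3p went from 1866 to 1044 TPM and ame-miR-133-3p from 2332 to 2798. The part of these markers in the results below was not tested. TPM here is the deposited count scaled by a total for its library that exceeds the sum of the listed counts, with no division by length.

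ame-miR-12-5p was the most abundant product of the cluster in 12 of 12 libraries, and it was rank 34 of the list by mean TPM. ame-miR-3477-5p was rank 47 and exceeded ame-miR-283-5p, at rank 55, in 10 of 12 libraries, the exceptions being D30-1 and D30-3. Counts were also summed over all 10 entries of the 3 hairpins, variants and other arms included. Over the 12 libraries the miR-12 entries made up 45.2% ± 3.93 (SD) of this sum, the miR-3477 entries 28.9% ± 3.40 and the miR-283 entries 25.9% ± 4.47. miR-3477-x was far rarer, with 2184 counts in all against 188922 for ame-miR-3477-5p.

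The level of ame-miR-12-5p was 1338, 1549 and 1177 TPM in CK, 2055, 2752 and 2694 at D10, 1335, 1225 and 1674 at D20 and 1762, 2470 and 1226 at D30. Every D10 library was above every CK library and every D20 library, while the D30 libraries ran through most of the range of the others. The means were 1355 ± 186 TPM in CK, 2500 ± 387 at D10, 1411 ± 234 at D20 and 1820 ± 624 at D30 (SD, n = 3 each).

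ame-miR-3477-5p stood at 905, 808 and 829 TPM in CK, 1195, 2237 and 1845 at D10, 807, 896 and 1161 at D20 and 757, 1556 and 763 at D30. Here too every D10 library lay above the CK and D20 libraries, and D30-2 lay far above D30-1 and D30-3. The means were 847 ± 50.8 TPM in CK, 1759 ± 526 at D10, 955 ± 184 at D20 and 1025 ± 460 at D30 (SD, n = 3 each).

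ame-miR-283-5p had 631, 541 and 635 TPM in CK, 861, 1564 and 962 at D10, 785, 829 and 728 at D20 and 813, 709 and 800 at D30. It was the only one of the 4 entries with every D20 and every D30 library also above every CK library, and D30-2, high for its neighbours, was the lowest D30 library for it. The means were 602 ± 52.9 TPM in CK, 1129 ± 380 at D10, 781 ± 50.8 at D20 and 774 ± 56.5 at D30 (SD, n = 3 each).

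miR-3477-x was counted at 10.3, 7.004 and 7.47 TPM in CK, 13.6, 56.7 and 14.9 at D10, 9.69, 6.87 and 7.07 at D20 and 6.93, 12.9 and 5.01 at D30. These levels rest on 77 to 212 counts a library, apart from D10-2 with 802, so that 1 library carried most of the D10 mean of 28.4 ± 24.5 TPM against 8.27 ± 1.80 in CK (SD, n = 3 each).

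**Figure D1:**
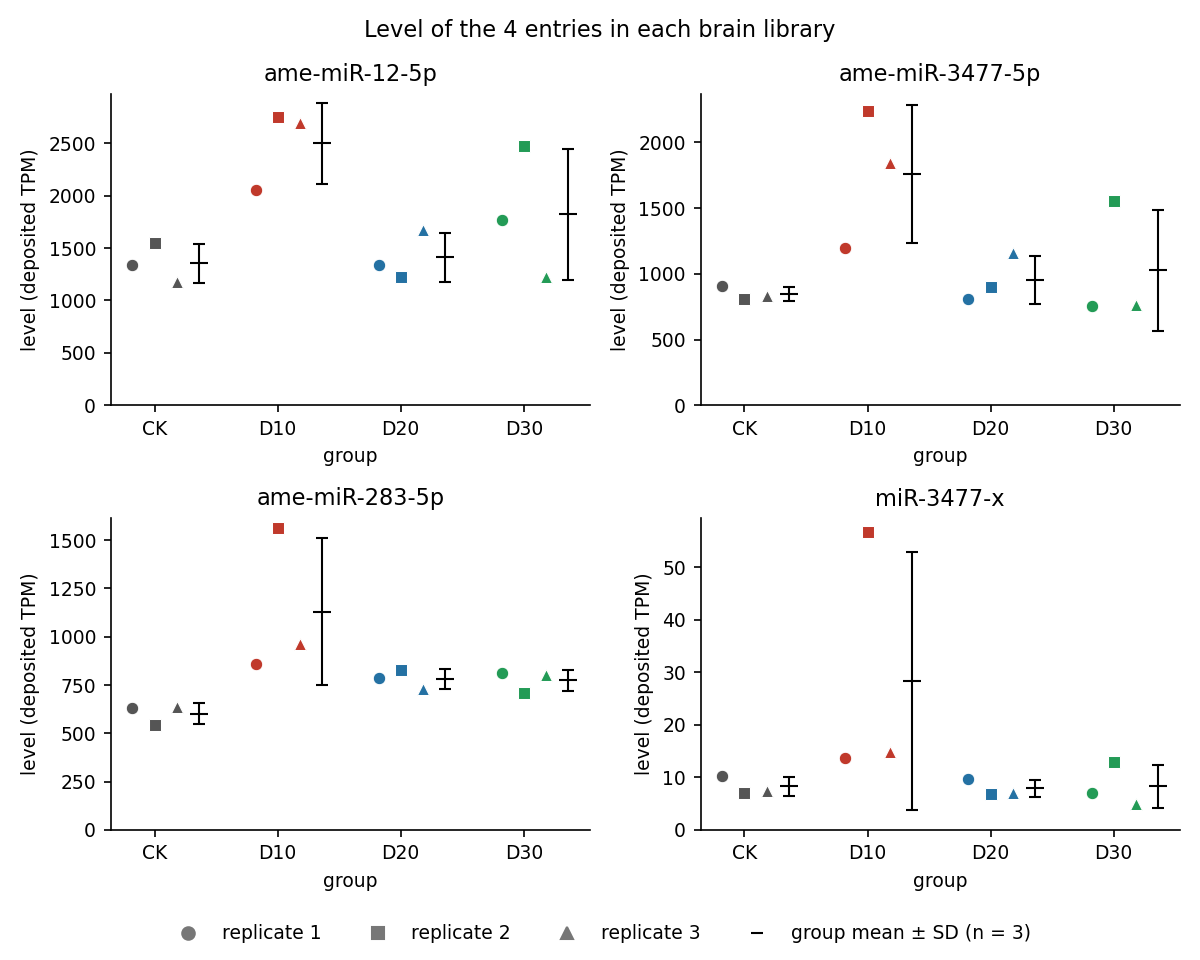
Deposited TPM (y axis, from 0) of the 4 entries by group (x axis), with 1 point per library, its shape giving the replicate number, and bars for the group mean ± SD (n = 3). The D10 libraries lie above the CK and D20 libraries in all 4 panels, D10-2 stands alone for miR-3477-x at 56.7 TPM, and D30-2 is high for ame-miR-12-5p and ame-miR-3477-5p but not for ame-miR-283-5p.

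In D10 against CK, 4 of the 4 entries had no overlap between groups and were higher in D10, where 3.94% of the 787 entries did so. This background is printed for reference, since ame-miR-3477-5p and miR-3477-x were selected on these libraries. The 787 entries, here and below, also include ones with few or no counts in the groups compared, which can hardly be without overlap. With D10 and CK alone, 557 entries reached the minimum of 10 counts. The shares are therefore not those of entries as abundant as the main products. In D20 against D10, 4 of 4 were lower in D20 without overlap (6.1% of all entries). In D20 against CK and in D30 against CK 1 of 4, ame-miR-283-5p, was higher without overlap (4.32% and 5.84% of all entries). In D30 against D10, ame-miR-283-5p and miR-3477-x were lower in D30 without overlap (3.56% of all entries), and in D30 against D20 all 4 overlapped (6.61% of all entries were higher and 3.18% lower in D30 without overlap). In the opposite directions, 0 of the 4 were without overlap, where 5.59% of all entries were lower in D10 than in CK, 7.75% lower in D20 than in CK and 4.45% lower in D30 than in CK, 3.81% higher in D20 than in D10 and 7.62% higher in D30 than in D10. The comparisons with CK share the same CK libraries and those with D10 the same D10 libraries, so they are not independent of each other. Nor are the 4 entries, which come from neighbouring hairpins and include near-identical sequences.

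The first question, whether the levels differed after treatment, was tested with edgeR's quasi-likelihood test over all 787 entries, with 12 libraries in 1 fit. The log2 fold change of ame-miR-12-5p in D10 against CK was 0.89 ± 0.23 (SE), which did not pass (edgeR adjusted p = 0.512). For ame-miR-283-5p it was 0.92 ± 0.21 (SE), with the same outcome (edgeR adjusted p = 0.512). edgeR called 0 of the 787 entries in this comparison (0%) at an adjusted p under 0.05 and an absolute log2 fold change over 1, and 48 had an unadjusted p under 0.05, while DESeq2 called 6 entries. The outcome depended on the tool and on 1 library. With DESeq2 the adjusted p was 0.00573 for ame-miR-12-5p and 0.000615 for ame-miR-283-5p, where 1.4% of all entries fell under 0.05, although neither reached a log2 fold change of 1 (0.92 and 0.95). In edgeR without D30-3, a library outside the comparison, both had an adjusted p of 0.0378. Of the 637 entries then tested, 1.26% fell under 0.05. Leaving out D30-3 changed both the estimate of spread and the set of entries tested, and their parts were not told apart. Over the 21 alternatives run, the adjusted p spanned 0.00573 to 1 for ame-miR-12-5p and 0.000615 to 1 for ame-miR-283-5p, and each was under 0.05 in 2 of them. The log2 fold change was positive in all 21, from 0.81 to 1.09 for ame-miR-12-5p and from 0.60, without D10-2, to 1.15 for ame-miR-283-5p. Because the libraries are of whole brain, more cells that hold a miRNA and more of it per cell cannot be told apart.

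The description for the miR-3477 entries ran the same way. The log2 fold change of ame-miR-3477-5p in D10 against CK was 1.06 ± 0.31 (SE). That of miR-3477-x was 1.80 ± 0.56 (SE), and 0.79 without D10-2.

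For the later days the estimates against CK were smaller. In D20 against CK the log2 fold change of ame-miR-12-5p was 0.14 ± 0.23 (SE, edgeR adjusted p = 1) and it took the other sign, -0.052, without D20-3. That of ame-miR-283-5p was 0.46 ± 0.21 (SE, edgeR adjusted p = 1). edgeR called 0 of 787 entries (0%), with 32 at an unadjusted p under 0.05, and DESeq2 called 2. ame-miR-3477-5p had a log2 fold change of 0.26 ± 0.30 (SE) and miR-3477-x one of 0.01 ± 0.55 (SE).

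In D30 against CK the log2 fold change of ame-miR-12-5p was 0.41 ± 0.23 (SE, edgeR adjusted p = 0.516), and 0.15 without D30-2. That of ame-miR-283-5p was 0.37 ± 0.21 (SE, edgeR adjusted p = 0.516). edgeR called 0 of 787 (0%), with 54 at an unadjusted p under 0.05, and DESeq2 called 1. ame-miR-3477-5p had a log2 fold change of 0.27 ± 0.30 (SE) and miR-3477-x one of -0.01 ± 0.55 (SE).

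Between treated groups, the log2 fold change of ame-miR-12-5p was -0.75 ± 0.23 in D20 against D10 (SE, edgeR adjusted p = 0.608, DESeq2 adjusted p = 0.0315, range over 20 alternatives 0.0315 to 1). DESeq2 put 1.52% of all entries under 0.05 there. In D30 against D10 it was -0.47 ± 0.23 (SE, edgeR adjusted p = 0.438). ame-miR-283-5p had -0.46 ± 0.21 in D20 against D10 (SE, edgeR adjusted p = 0.760) and -0.55 ± 0.21 in D30 against D10 (SE, edgeR adjusted p = 0.413), and without D10-2 these became -0.14 and -0.23. edgeR called 0 entries in both comparisons (0%), with 48 and 88 at an unadjusted p under 0.05, and DESeq2 called 5 and 2. ame-miR-3477-5p had -0.81 ± 0.31 in D20 against D10 and -0.79 ± 0.31 in D30 against D10 (SE). For miR-3477-x the values were -1.79 ± 0.56 and -1.81 ± 0.56 (SE), and -0.78 and -0.79 without D10-2.

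A single edgeR test for any difference among the 4 groups gave an adjusted p of 0.356 for both ame-miR-12-5p and ame-miR-283-5p, with 0 of 787 entries under 0.05 (0%) and 77 at an unadjusted p under 0.05. DESeq2 gave adjusted p values of 0.00658 and 0.00406, with 3.43% of entries under 0.05, and the range over 19 alternatives was 0.00658 to 0.609 for ame-miR-12-5p and 0.00406 to 0.609 for ame-miR-283-5p.

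**Figure D2:**
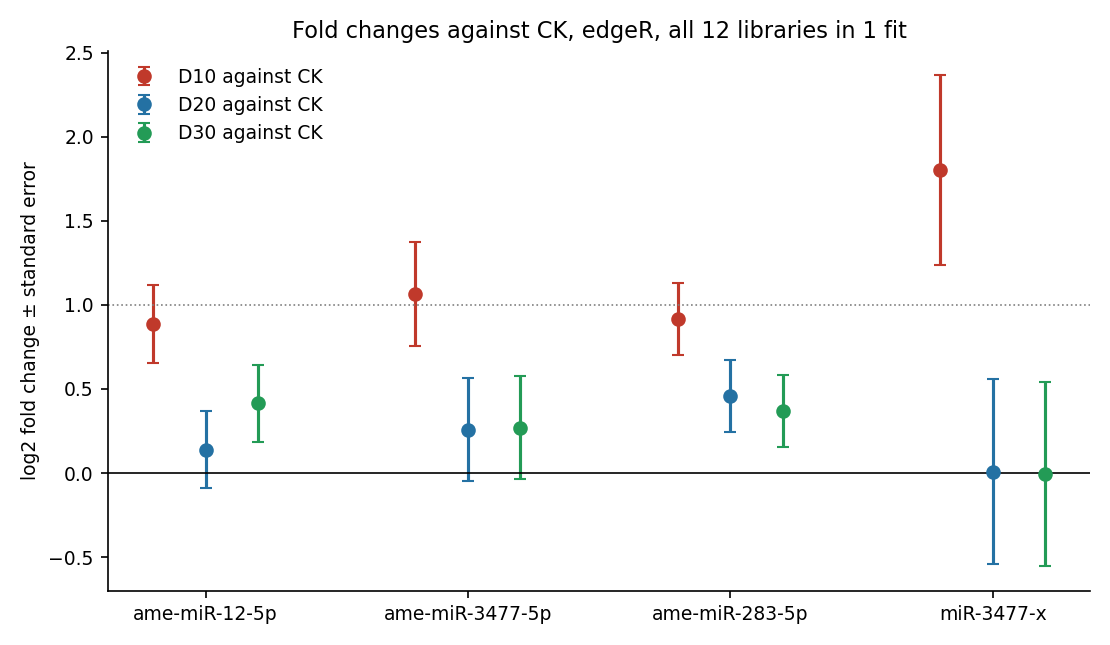
log2 fold change against CK (y axis) of the 4 entries (x axis) in D10, D20 and D30, from edgeR with all 12 libraries in 1 fit; bars are ± 1 standard error, the solid line marks 0 and the dotted line the minimum of 1 used for calls. The D10 values run from 0.89 for ame-miR-12-5p to 1.80 for miR-3477-x, and the D20 and D30 values of all 4 entries are below 0.5.

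The second question was whether the products of the cluster kept a fixed proportion, which a ratio of counts within a library answers without depth or scaling. The ratio of ame-miR-283-5p to ame-miR-12-5p was 0.472, 0.350 and 0.539 in CK, 0.419, 0.568 and 0.357 at D10, 0.588, 0.677 and 0.435 at D20 and 0.461, 0.287 and 0.653 at D30. The groups overlapped throughout, and the lowest and the second highest value both came from D30. On the log2 scale D10 differed from CK by -0.02 (two-sided exact permutation p = 1), D20 by 0.32 (exact p = 0.3) and D30 by -0.01 (exact p = 0.9), where 3 libraries against 3 cannot give a p under 0.1. Over the 4 groups at once the exact permutation p was 0.687.

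The ratio of ame-miR-3477-5p to ame-miR-12-5p was 0.676, 0.522 and 0.705 in CK, 0.582, 0.813 and 0.685 at D10, 0.604, 0.732 and 0.694 at D20 and 0.429, 0.630 and 0.622 at D30. It varied least of the 3 ratios, with an SD of 0.24 on the log2 scale over 12 libraries, against 0.38 for ame-miR-283-5p to ame-miR-12-5p and 0.39 for ame-miR-3477-5p to ame-miR-283-5p. The median over 23220 pairs of entries with a mean of at least 100 counts was 0.50.

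The ratio of ame-miR-3477-5p to ame-miR-283-5p was 1.43, 1.49 and 1.31 in CK, 1.39, 1.43 and 1.92 at D10, 1.03, 1.08 and 1.59 at D20 and 0.932, 2.19 and 0.954 at D30. Replicates of D30 thus held both the highest and the lowest value of the series.

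**Figure D3:**
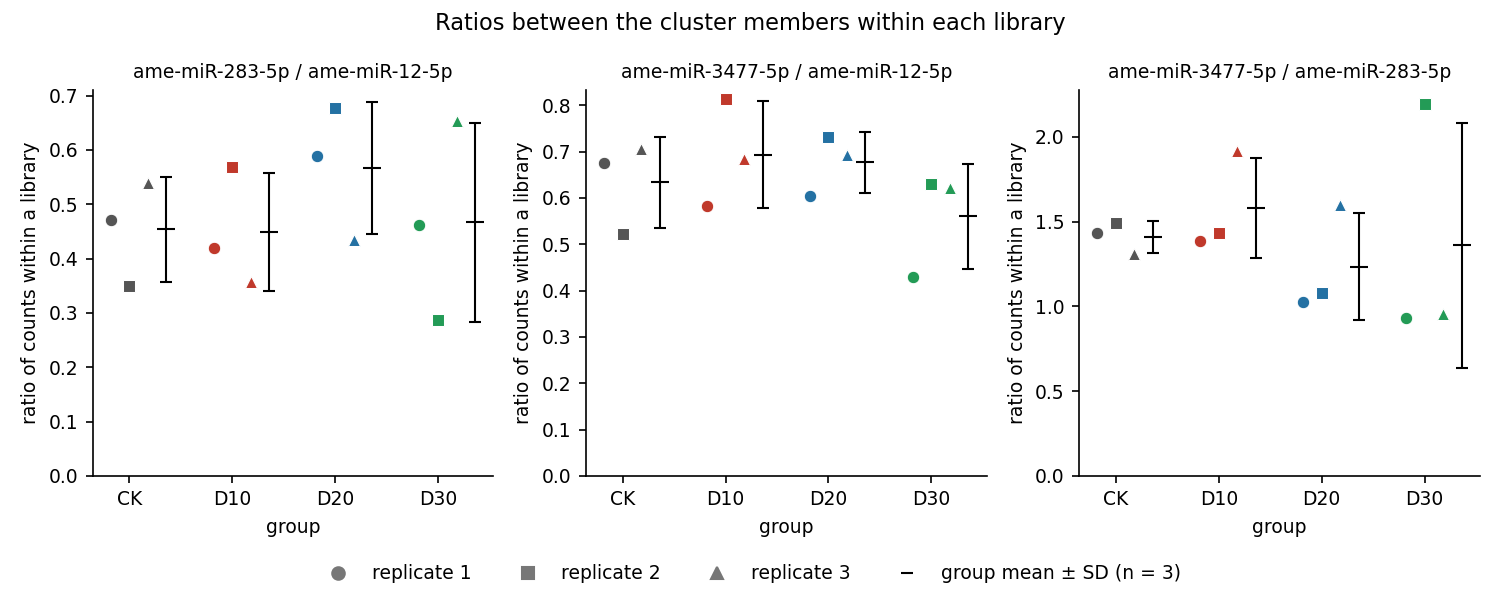
Ratio of counts within a library (y axis, from 0) for the 3 pairs of main products by group (x axis), with 1 point per library and bars for the group mean ± SD (n = 3). The groups overlap in each panel, and the D30 libraries spread from 0.932 to 2.19 for ame-miR-3477-5p over ame-miR-283-5p.

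The third question, whether the products varied together from library to library, was addressed with correlations of log2(CPM + 1), CPM being the count scaled by the TMM library size, over 12 libraries for the 6 pairs of the 4 entries. p-values are from 100000 permutations and were adjusted over the 6 pairs. The permutations moved libraries freely between the 4 groups, so a group difference shared by 2 entries adds to r and lowers p. ame-miR-3477-5p and miR-3477-x were selected for a difference between these groups. The p-values of pairs that hold either of them are therefore not independent of that selection. ame-miR-12-5p and ame-miR-3477-5p had Pearson's r = 0.89 (permutation p = 0.00023, adjusted 0.00138) and Spearman's rho = 0.79 (permutation p = 0.0037, adjusted 0.0111). Without the farthest libraries, D10-2 and D10-3, r was 0.75, and for deviations from the group means, pooled over the groups, it was 0.81. In D10, D20 and D30 the same library was highest for both entries (D10-2, D20-3 and D30-2). In CK it was CK-2 for ame-miR-12-5p and CK-1 for ame-miR-3477-5p. The relation within single groups was not tested.

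ame-miR-12-5p and ame-miR-283-5p, the outer hairpins, had r = 0.58 (permutation p = 0.041, adjusted 0.041) and rho = 0.43 (permutation p = 0.161, adjusted 0.161). This relation rested on D10-2 and D10-3, since r was 0.06 without them, 0.32 without D10-2 alone and -0.04 for deviations from the group means. ame-miR-283-5p and ame-miR-3477-5p had r = 0.69 (permutation p = 0.0122, adjusted 0.0183) and rho = 0.45 (permutation p = 0.141, adjusted 0.161). It too rested on few libraries, with r of 0.31 without CK-2 and D10-2, 0.38 without D10-2 alone and 0.29 for deviations. The difference between the correlation of ame-miR-12-5p with ame-miR-3477-5p and that with ame-miR-283-5p was not tested.

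miR-3477-x and ame-miR-3477-5p, both selected by the study on these libraries, are given without a p. They had r = 0.84 and rho = 0.83, with r of 0.64 without D10-2 and D10-3 and 0.67 for deviations. Reads of these near-identical entries could have been divided by the assignment. miR-3477-x and ame-miR-12-5p had r = 0.74 (permutation p = 0.00131, adjusted 0.00262) and rho = 0.69 (permutation p = 0.0163, adjusted 0.0325), with r of 0.57 without D10-2 and D10-3 and 0.52 for deviations. With ame-miR-283-5p, miR-3477-x had r = 0.76 (permutation p = 0.023, adjusted 0.0276), rho = 0.45 (permutation p = 0.148, adjusted 0.161), an r of 0.09 without CK-2 and D10-2 and of 0.66 for deviations, and r was 0.20 without D10-2 alone.

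**Figure D4:**
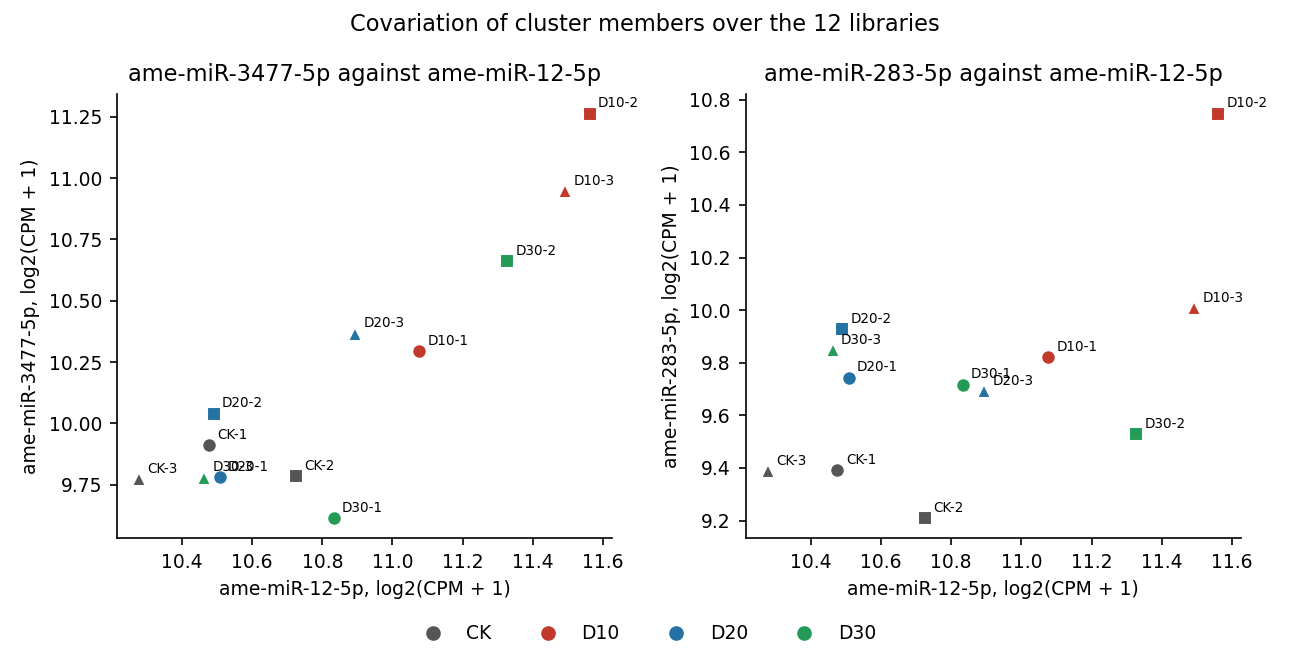
log2(CPM + 1) of ame-miR-3477-5p (left) and of ame-miR-283-5p (right) against ame-miR-12-5p, with 1 labelled point per library coloured by group. ame-miR-3477-5p follows ame-miR-12-5p over the 12 libraries (r = 0.89), while for ame-miR-283-5p D10-2 lies apart and r is 0.32 without it.

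As a description, the same ratios were taken for other miRNAs whose hairpins lie together. The log2 ratio of ame-let-7-5p to ame-miR-100-5p had an SD of 0.33 (r = 0.67), that of ame-let-7-5p to ame-miR-125-5p one of 0.43 (r = 0.22) and that of ame-miR-100-5p to ame-miR-125-5p one of 0.27 (r = 0.34). For ame-miR-275-3p with ame-miR-305-5p the SD was 0.52 (r = -0.29), and for ame-miR-750-3p with the rarer ame-miR-1175-3p (a mean of 44.7 counts a library) it was 0.47 (r = 0.08). ame-miR-3477-5p with ame-miR-12-5p thus had the smallest SD and the highest r of the 8 pairs from clusters given here, against a median r of 0.01 and quartiles of -0.26 and 0.29 over the 23220 pairs of entries. The selection of ame-miR-3477-5p for a group difference can add to this r. A high r was also not particular to the cluster. Outside it, ame-miR-281-3p reached 0.96 with ame-miR-3477-5p, and ame-miR-8-3p 0.93 with ame-miR-12-5p.

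The entries most like each member, by Pearson's r over 12 libraries among 215 others with a mean of at least 100 counts, are given as a description. ame-miR-12-5p was nearest to ame-miR-8-3p (r = 0.93), a regulator of body growth through insulin signalling in Drosophila, followed by ame-miR-281-3p (0.91), ame-miR-3477-5p (0.89), miR-281-x (0.87) and ame-miR-6060-5p (0.80). ame-miR-3477-5p was nearest to ame-miR-281-3p (0.96), ame-miR-375-3p (0.93), miR-281-x (0.92), ame-miR-12-5p (0.89) and ame-miR-8-3p (0.88). These values were 0.94, 0.91, 0.94, 0.85 and 0.80 without D10-2.

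ame-miR-283-5p was nearest to ame-miR-306-5p (0.85), the predicted m0121-5p (0.84), ame-miR-305-5p (0.80), miR-306-x (0.79) and ame-miR-3719-3p (0.78). Without D10-2 these were 0.53, 0.44, 0.23, 0.16 and 0.30, so that 1 library carried much of the likeness. The list of miR-3477-x was m0121-5p (0.94), ame-miR-305-5p (0.91), miR-306-x (0.91), ame-miR-282-5p (0.88) and ame-miR-306-5p (0.85), and without D10-2 the values were 0.67, 0.50, 0.47, 0.51 and 0.05. By this measure the nearest entries of miR-3477-x were thus, in 4 of 5 cases, also among the nearest of ame-miR-283-5p, and for both members the likeness was lower without D10-2.

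The share of miR-3477-x in the counts of the pair miR-3477-x and ame-miR-3477-5p, that is, the share with the changed seed, was 2.47% in D10-2 (95% Wilson interval 2.31% to 2.65%). In the other 11 libraries it was between 0.605% and 1.19%, with a median of 0.860%. D10-1 had 1.12% and D10-3 0.800%, within the range of the CK libraries (1.13%, 0.860% and 0.893%) or just below it. The D10 mean was 1.47% ± 0.888 against 0.961% ± 0.147 in CK (SD, n = 3 each), a difference of 0.505 percentage points that was 0.00145 without D10-2. In D20 the mean was 0.851% ± 0.301 and in D30 0.795% ± 0.130 (SD, n = 3 each). Intervals cover counting error only.

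miR-283-x, the longer form with the seed of ame-miR-283-5p, was at 161, 153 and 159 TPM in CK, 190, 209 and 194 at D10, 146, 146 and 136 at D20 and 205, 171 and 161 at D30. CK, D10 and D20 were narrow, while D30 ran from 161 to 205 TPM. The D10 libraries were above every CK library (so were 3.94% of all entries). The D20 libraries were below every CK library (7.75% of all entries). In D10 against CK the log2 fold change of miR-283-x was 0.33 ± 0.11 (SE, edgeR adjusted p = 0.685), smaller than that of ame-miR-283-5p. Whether tags between the lengths of both entries were counted on one or the other is set by the authors' assignment.

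The ratio of miR-283-x to ame-miR-283-5p was 0.256, 0.282 and 0.250 in CK, 0.220, 0.134 and 0.201 at D10, 0.186, 0.176 and 0.186 at D20 and 0.252, 0.242 and 0.201 at D30. All D10 and all D20 libraries were below all CK libraries, and D30 overlapped CK. The means were 0.263 ± 0.0170 in CK, 0.185 ± 0.0455 at D10, 0.183 ± 0.00606 at D20 and 0.232 ± 0.0270 at D30 (SD, n = 3 each). This ratio was chosen after its values were seen and was not tested.

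The remaining entries of the 3 hairpins were minor. miR-12-z averaged 5.62 ± 1.22 TPM in CK, 8.06 ± 2.09 at D10, 4.79 ± 1.02 at D20 and 6.26 ± 2.58 at D30. miR-12-x averaged 4.20 ± 1.35 TPM in CK, 5.87 ± 1.03 at D10, 2.96 ± 0.743 at D20 and 5.34 ± 2.15 at D30 (SD, n = 3 each). For both, the D10 and CK libraries overlapped. miR-3477-y, from the other arm of the hairpin, was at 2.65 to 6.15 TPM over the 12 libraries, with 657 counts in all. miR-12-y and miR-283-y had 5 and 4 counts in all and were below the minimum of 10. Of the 8 tested entries of the hairpins, which include ame-miR-3477-5p and miR-3477-x, 5 were higher in D10 than in CK without overlap (3.94% of all entries) and 7 were lower in D20 than in D10 without overlap (6.1% of all entries). The 8 entries are variants or arms of 3 neighbouring hairpins and are not independent of each other, so these counts are a description.

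**Figure D5:**
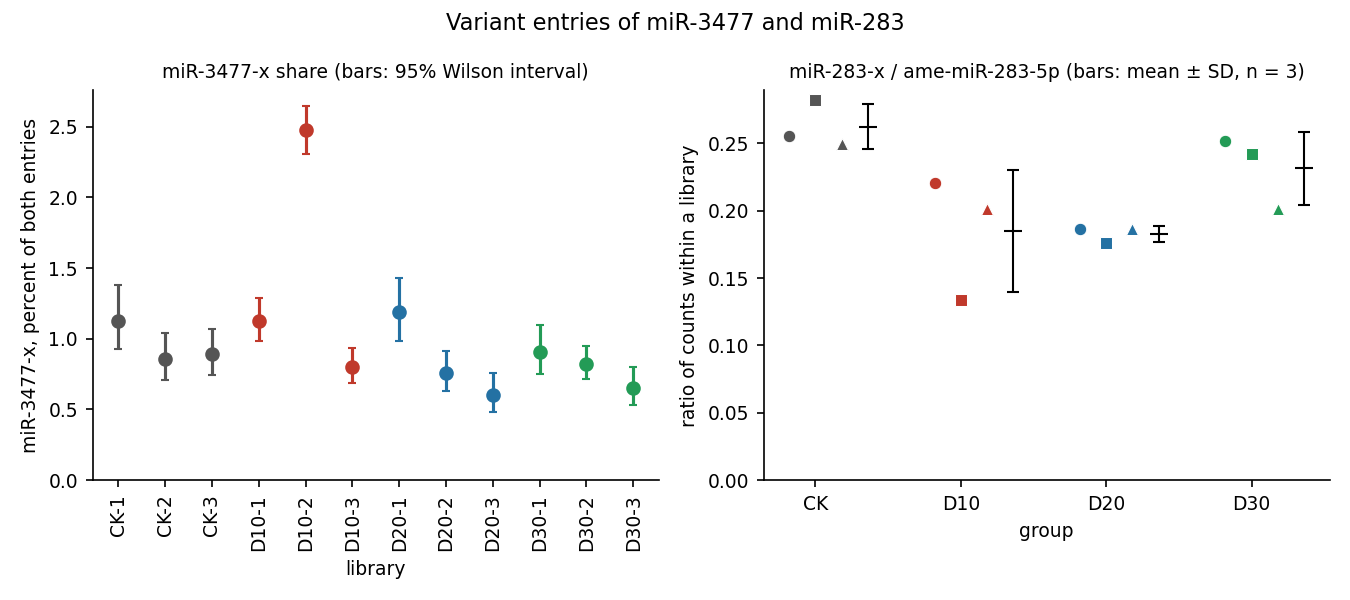
Left, share of miR-3477-x in the counts of miR-3477-x and ame-miR-3477-5p (y axis, percent, from 0) in each library (x axis), with 95% Wilson intervals. Right, ratio of miR-283-x to ame-miR-283-5p within a library (y axis, from 0) by group, with bars for the mean ± SD (n = 3). D10-2 alone reaches 2.47% on the left. On the right, for a ratio chosen after its values were seen, the D10 and D20 libraries lie below the CK libraries.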

How the data were processed

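Small RNA of 18 to 30 nt from brain was sequenced in 12 libraries. The authors removed low-quality reads and rare tags, and removed other RNA classes with Blastall 2.2.25 against GenBank and Rfam 11.0. The paper also describes the removal of reads that Bowtie placed in exons, introns or repeats. How that step treated reads of these hairpins, which lie inside a protein-coding gene span, was not analysed here. Tags were assigned to miRNAs with Bowtie 1.1.2 and miRBase 22 and to predicted hairpins with MIREAP 0.2. The authors deposited a count per miRNA entry, without normalization. They also deposited TPM, the count scaled by a total for its library that exceeds the sum of the listed counts, in which the value 0.01 stands for 0 counts. The reads themselves were not analysed here.

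Counts were tested with edgeR 4.0.16 in R 4.3.3 (TMM, quasi-likelihood test, 1 mean per group, 12 libraries, entries with at least 10 counts, Benjamini-Hochberg over all entries). Calls needed an adjusted p under 0.05 and an absolute log2 fold change over 1. DESeq2 1.42.0, other scalings and filters, a robust fit, fits of the compared groups alone, the replicate number as a block and the omission of single libraries were alternatives. Ratios, exact permutation tests and correlations (pseudocount 1 CPM) used Python 3.11.15 with numpy 2.4.6, scipy 1.17.1 and pandas 2.3.3. Depth was 8454313 to 15979901 counts a library. No pair of replicates agreed within sampling noise, and each is a pool from 1 colony.

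The members, marker lists and comparisons were chosen with earlier results of these data known. Named entries are the 4 members, the other entries of their hairpins, entries sharing a seed with a member, the 5 entries most correlated with each member among those with a mean of at least 100 counts, and 5 pairs from other clusters, listed by name. Equal replicate numbers are not stated to be the same colony. Correlations of the deviations of equally numbered libraries ran from -0.383 to 0.375, and no comparison had all 3 pairs over 0.1, so the numbers were not taken as pairs.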

Additional observations from a re-analysis of the deposited data

Results flagged for a closer look

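miR-283-x lay on opposite sides of CK at D10 and at D20. Every D10 library was above every CK library (log2 ratio of mean TPM 0.33) and every D20 library was below every CK library (log2 ratio -0.14), so the 2 values lay 0.47 apart. Both use the same CK libraries. Of the 787 entries, 3.94% were higher in D10 than in CK without overlap and 7.75% were lower in D20 than in CK. miR-283-x was found by a search of the tested hairpin entries and their ratios for groups on opposite sides of CK. The difference itself, D20 against D10, was a log2 fold change of -0.39 ± 0.11 (SE), which did not pass (edgeR adjusted p = 0.608). The D30 libraries, at a log2 ratio of 0.18, overlapped CK.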

How the results depend on the processing

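The count of called entries, 0 in all 6 comparisons and in the 4-group test with edgeR, differed between settings (in D30 against D20, where 60 entries had an unadjusted p under 0.05, DESeq2 also called 0). With DESeq2 it was 6 in D10 against CK, 2 in D20 against CK, 1 in D30 against CK, 5 in D20 against D10, 2 in D30 against D10 and 27 over the 4 groups. With only the compared groups in the fit it was 2 in D10 against CK, 3 in D20 against CK and 2 in D20 against D10, and with at least 10 counts in at least 3 libraries it was 1 over the 4 groups. With the replicate block it was 1 in D30 against CK, 1 in D30 against D10 and 1 over the 4 groups, and the block changed no call of ame-miR-12-5p or ame-miR-283-5p. Leaving out 1 library gave 0 to 6 calls in D10 against CK (6 without D30-3, 1 without D30-2), 0 to 6 in D20 against D10 (6 without D30-3), 0 to 1 in D30 against D10 (1 without D30-2) and 0 to 4 over the 4 groups (4 without D30-3). The cause was not tested.

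Leaving out 1 library moved the log2 ratio of ame-miR-283-5p to ame-miR-12-5p between -0.21 and 0.13 in D10 against CK and between -0.30 and 0.30 in D30 against CK, so no direction is read there. It moved the log2 fold change of ame-miR-12-5p in D20 against CK between -0.052 and 0.34. The D10 minus CK difference in the miR-3477-x share ran from 0.00145 to 0.838 percentage points. Correlations ran from 0.32 to 0.70 for ame-miR-12-5p with ame-miR-283-5p, from 0.38 to 0.78 for ame-miR-283-5p with ame-miR-3477-5p and from 0.20 to 0.83 for ame-miR-283-5p with miR-3477-x, each lowest without D10-2. Without both D10-2 and D30-2, chosen after seeing the data like the leave-one-out runs of the correlations, these were 0.46, 0.53 and 0.29, none under p = 0.05, and ame-miR-12-5p with ame-miR-3477-5p was 0.81 (permutation p = 0.00753). That pair ran from 0.85 to 0.95 in the leave-one-out runs. The limit on p stated with the correlations, for pairs that hold a miR-3477 entry, applies here too. Counts of 77 to 802 a library limit the precision for miR-3477-x.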

Other observations

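Entries that share the seed of ame-miR-283-5p without coming from its hairpin are given here by their values. ame-miR-6041-3p averaged 5.93 ± 2.40 TPM in D10 and 12.7 ± 0.558 in CK (SD, n = 3 each), with a log2 fold change of -1.10 ± 0.35 (SE) in D10 against CK that did not pass (edgeR adjusted p = 0.685). miR-216-x had a log2 fold change of 0.38 ± 0.23 (SE, edgeR adjusted p = 0.912) in the same comparison.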
